A study of Mus musculus with 8 samples.

Results

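The autophagy machinery was examined here as 38 genes, matched by exact symbol among the 24421 genes of the count tables. The list was written by name and role, with earlier results of these data known, and its rule uses no measured value. It covers the ULK kinase complex, the class III phosphatidylinositol 3-kinase (PI3K) complex, genes of membrane supply, the ATG conjugation enzymes, the LC3 and GABARAP family, and cargo receptors. All 38 symbols were found and 35 passed the filter on low counts. RNA came from mouse CD8+ T cells, the cytotoxic lineage, which were naive at the start and were then activated for 48 hours on plates coated with antibodies to CD3 and CD28. Control libraries (n = 4) are labelled LKB1 wild type and the others (n = 4) LKB1-deficient; the sources used here name no deleting allele, driver, strain or age of the animals. LKB1, the product of Stk11, phosphorylates and so switches on AMPK and its relatives. Whether the 4 replicates of a group are 4 animals is not stated in the labels, so the spread behind each p-value may be technical.

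Autophagy wraps cytoplasm in a double membrane, the autophagosome, and delivers it to the lysosome. The ULK kinase complex starts the process, the PI3K complex marks the growing membrane with a lipid, and 2 ubiquitin-like conjugation steps attach LC3 and GABARAP proteins to it, where receptors dock with their cargo. AMPK phosphorylates ULK1 and favours initiation, mTORC1 restrains it, and activated T cells depend on the pathway to remodel their organelles and metabolism. Much of this control acts on proteins, and the values below are transcript levels.

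Control libraries held 7090252 to 12211930 gene counts and LKB1-deficient ones 3454388 to 6356125, so low genes were measured less precisely in the latter. Levels are CPM, which corrects gene counts for library size (TMM factors), and fold changes are LKB1-deficient against control. The libraries count 3' ends. Levels of a gene are compared between libraries, and transcript amounts are not compared between genes. Stk11 itself was 67.8 to 101 CPM in control and 64.4 to 107 CPM in LKB1-deficient libraries, and 3' tags need not lie in a deleted part, so these values do not check the labels. Reads outside annotated genes were 12.1% to 14.3% in control libraries and 15.9%, 17.5%, 14.9% and 16.5% in LKB1-deficient replicates 1 to 4, without overlap, and their part in the results was not tested. On the first principal component, which held 56.4% of the variance, LKB1-deficient replicates 2 and 4 lay at 51.7 and 54.4, replicates 1 and 3 at 12.5 and 6.79, and the controls from -37.9 to -21.7. Summed levels of 8 CD8 T cell markers were 3978 to 4402 CPM in control and 2215 to 3396 CPM in LKB1-deficient libraries. Of these 8 markers, 6 had a negative and 2 a positive log2 fold change, with a median of -0.41. Cd3d, Cd3g and Cd8a fell (Cd8a from 721 to 425 CPM, edgeR adjusted p = 0.0156) and 5 did not pass. Of those 5, Cd8b1 went from 566 to 404, Lck from 502 to 402 and Cd247 from 198 to 156 CPM on average. In the other direction, Cd3e went from 79.1 to 98.5 CPM and Cd2 from 212 to 250 CPM on average. Summed markers of other cells were low: 6.56 to 9.08 against 3.23 to 9.0 CPM for 4 CD4 T cell genes, 7.23 to 12.6 against 4.56 to 7.88 CPM for 5 B cell genes and 2.25 to 5.98 against 3.77 to 11.4 CPM for 6 myeloid genes. Pax5 of the B cell list and Klra8 of the NK cell list had 0 counts in all 8 libraries. The 5 mast cell and basophil genes summed to 2.96 to 4.54 CPM in control and 4.22 to 20.7 CPM in LKB1-deficient libraries. The 4 NK cell genes, of which Eomes is also expressed by CD8+ T cells, summed to 66.3 to 116 and 83.7 to 154 CPM. Eomes made up most of that sum. Klrb1c was at most 0.227 CPM in control and at 0.563, 2.04, 0.630 and 1.62 CPM in LKB1-deficient replicates 1 to 4, from at most 7 counts. Ncr1 overlapped, at 0.0812 to 0.390 and 0 to 0.583 CPM. In bulk RNA, fewer cells of a type and less RNA per cell cannot be told apart.

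Of the 35 tested autophagy genes, 7 were lower and 1 was higher in LKB1-deficient cells. The genes that fell were Calcoco1, Map1lc3a, Map1lc3b, Gabarap, Atg3, Atg4b and Vmp1, by 1.32- to 2.74-fold, and Tax1bp1 rose 2.05-fold. The 8 calls are 22.9% of the tested autophagy genes, against 22.5% of all 10396 tested genes (edgeR quasi-likelihood test, Benjamini-Hochberg adjusted p of 0.05 or less). Over all genes 12.4% were called higher and 10.1% lower. The share called is therefore that of the background, and the counts by direction are a description. The median log2 fold change was -0.12 over the tested autophagy genes and 0.00 over all tested genes. Groups did not overlap in 11 of the 35, against 26.1% of all tested genes. Among the 27 that did not pass, 4 had an unadjusted p under 0.05, and their smallest adjusted p was 0.0588. With 1 library left out at a time, all 8 calls held when LKB1-deficient replicate 3 was dropped, 7 when control replicate 2 was and 6 when LKB1-deficient replicate 1 was. Then 2 held without control replicate 1 or 4, and 1 without control replicate 3, LKB1-deficient replicate 2 or LKB1-deficient replicate 4. The log2 fold changes kept their sign throughout, for example -0.52 to -0.36 for Gabarap, -0.55 to -0.39 for Atg4b and 0.86 to 1.23 for Tax1bp1, and the largest adjusted p was 0.109. None of the 8 held without both LKB1-deficient replicates 2 and 4, where 2.37% of all genes were called. Calcoco1 was the gene whose call held when any single library was left out.

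**Figure D1:**
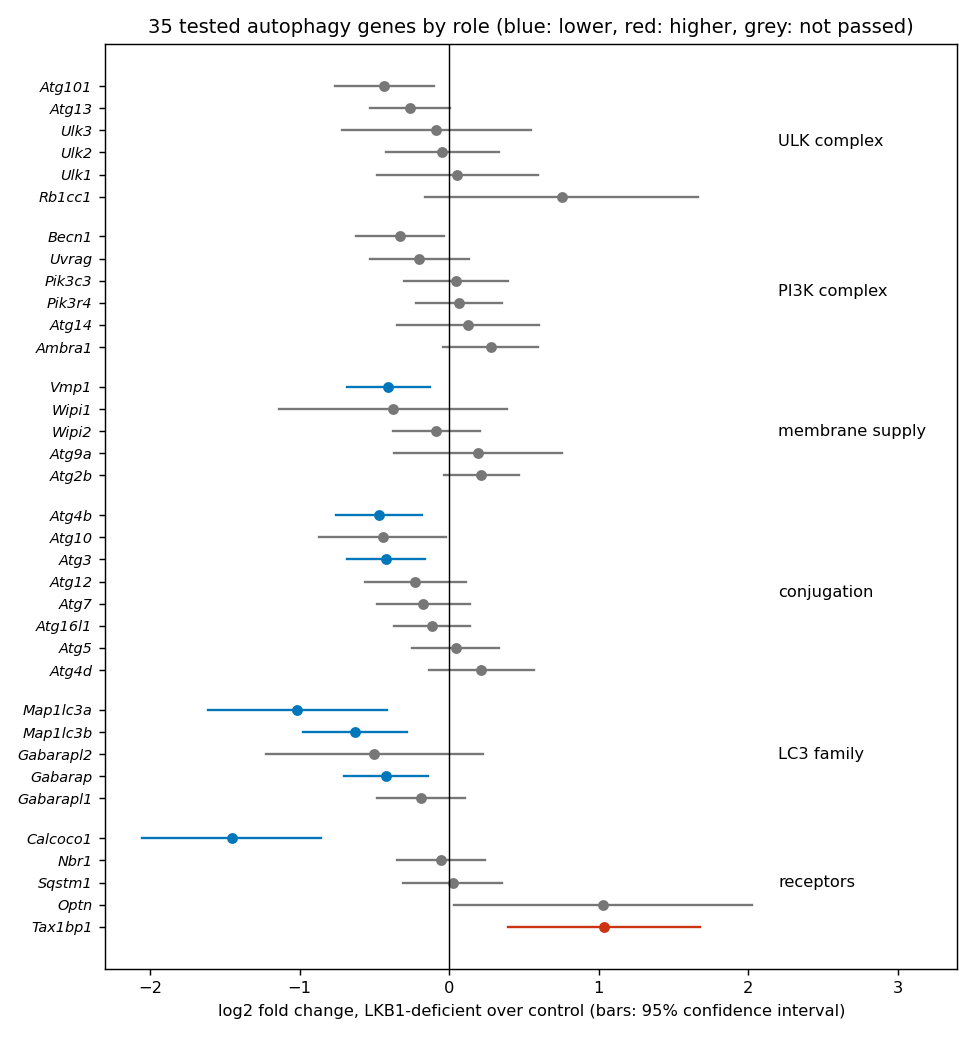
Log2 fold change, LKB1-deficient over control, of the 35 tested autophagy genes by role, with 95% confidence intervals as bars (n = 4 per group). The 7 genes that passed with a lower level are blue, Tax1bp1, which passed with a higher level, is red, and the 27 that did not pass are grey; all 5 LC3 family values lie below 0.

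Promoter sequence is shown for 5 genes that the results turn on. Calcoco1 and Tax1bp1 are the receptors that moved in opposite directions, Map1lc3b is the most used autophagosome marker, and Atg3 and Atg5 are conjugation genes with the E-box core CACGTG, of which Atg3 fell and Atg5 did not pass. The E-box core is the motif read by TFEB, TFE3 and MYC. The sequences come from RefSeq promoter windows (GRCm38.p6), cut to bases before the start that lie outside GENCODE exons, and are written 5′ to 3′ on the gene's own strand with CACGTG in capitals.
Atg3, chr16:45158707-45158784, plus strand: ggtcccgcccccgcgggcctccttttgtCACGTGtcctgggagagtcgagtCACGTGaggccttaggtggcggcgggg
Atg5, chr10:44268089-44268338, plus strand: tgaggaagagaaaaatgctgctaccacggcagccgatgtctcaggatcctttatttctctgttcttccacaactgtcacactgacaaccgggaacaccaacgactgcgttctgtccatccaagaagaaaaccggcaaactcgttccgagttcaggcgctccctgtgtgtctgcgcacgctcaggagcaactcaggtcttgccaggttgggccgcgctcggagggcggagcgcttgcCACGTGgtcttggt
Map1lc3b, chr8:121590188-121590360, plus strand: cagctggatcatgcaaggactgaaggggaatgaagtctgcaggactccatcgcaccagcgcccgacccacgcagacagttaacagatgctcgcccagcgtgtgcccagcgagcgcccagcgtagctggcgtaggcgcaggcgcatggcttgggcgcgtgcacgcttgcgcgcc
Calcoco1, chr15:102722179-102722428, minus strand: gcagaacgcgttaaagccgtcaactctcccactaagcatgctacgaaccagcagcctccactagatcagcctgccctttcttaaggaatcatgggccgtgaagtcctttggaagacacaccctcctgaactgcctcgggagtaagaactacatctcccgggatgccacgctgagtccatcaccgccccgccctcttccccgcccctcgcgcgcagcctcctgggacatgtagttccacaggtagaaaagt
Tax1bp1 (before its second annotated start), chr6:52713956-52714164, plus strand: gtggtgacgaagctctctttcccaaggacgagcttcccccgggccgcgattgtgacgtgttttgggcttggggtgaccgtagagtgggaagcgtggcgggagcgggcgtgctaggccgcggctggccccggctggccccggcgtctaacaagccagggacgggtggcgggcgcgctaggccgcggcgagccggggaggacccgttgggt
Windows, which run from 250 bases before to 50 after a start, matched 32 of the 38 genes. CACGTG, a palindrome searched on both strands, was in the windows of Atg3 (2 matches), Atg5, Atg7 and Atg14, 4 of 32 genes (12.5%), against 8.09% of 27025 genes with a window. The forkhead motif GTAAACA and the ATF4 and C/EBP motif TGATGNAA, searched on both strands, were in none of the 32, against 4.05% and 4.51% of all genes. The windows of Atg7 (chr6:114670846-114671145) and Atg14 (chr14:47568385-47568684) lie inside the annotated genes, which span 114643097 to 114860614 and 47540893 to 47570649. The Tax1bp1 bases shown also lie inside their annotated gene, which spans 52713729 to 52766780. A match is a description of the letters, and among the 4 genes with CACGTG only Atg3 passed the test.

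In the LC3 and GABARAP family, the ubiquitin-like proteins attached to the autophagosome membrane, 3 of 5 members fell and 2 did not pass. Of all tested genes, 22.5% were called and 10.1% were called lower. The count in so short a list is a description. Map1lc3b encodes LC3B, the usual marker of autophagosomes, and is located on chromosome 8 (121590361 to 121598760, plus strand; GENCODE vM21, GRCm38). Over 8400 bases it overlaps Gm20388, an annotated gene on the same strand that is not in the count tables. All genes placed here and below are protein-coding. Map1lc3b was at 53.1, 43.9, 49.0 and 40.8 CPM in control replicates 1 to 4, and at 36.0, 23.6, 33.2 and 27.5 CPM in LKB1-deficient replicates 1 to 4. Every LKB1-deficient library was below every control library, with replicates 2 and 4 lowest. The fall was 1.55-fold (log2 fold change -0.63 ± 0.16 SE, adjusted p = 0.0212). Gabarap, a family member of the GABARAP branch on chromosome 11 (69991143 to 69994951, plus strand), was at 164, 166, 173 and 162 CPM in control and 124, 118, 147 and 108 CPM in LKB1-deficient replicates 1 to 4. The control libraries were nearly level and all LKB1-deficient libraries lay below them (log2 fold change -0.42 ± 0.13, adjusted p = 0.0393). Sample identifiers begin with ET for replicate 1 and EU for the rest; with this prefix as a term the adjusted p was 0.0581, and among EU libraries alone the value was -0.43 with an adjusted p of 0.0923, so the call ended in both.

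Map1lc3a, which encodes LC3A, lies on chromosome 2 (155276297 to 155278073, plus strand). Its counts were low, 36 to 56 in the controls and 6 to 12 in the LKB1-deficient libraries, or 5.03, 3.57, 4.09 and 4.68 CPM against 3.09, 2.04, 1.89 and 1.62 CPM in replicates 1 to 4. The groups did not overlap, and the fall of 2.02-fold (log2 fold change -1.02 ± 0.27, adjusted p = 0.0262) rests on few reads. Gabarapl1 was 59.2 to 73.0 CPM in control and 47.8 to 65.0 CPM in LKB1-deficient libraries (log2 fold change -0.19, 95% interval -0.48 to 0.11). Gabarapl2, also called GATE-16, was 5.52 to 6.75 and 1.46 to 6.75 CPM (log2 fold change -0.50, interval -1.23 to 0.23). Neither passed the test, and both intervals include 0. Summed over the family, the level was 293, 279, 305 and 283 CPM in control and 232, 193, 245 and 206 CPM in LKB1-deficient replicates 1 to 4, without overlap. Gabarap is the main part of this sum, followed by Gabarapl1, which did not pass, and then Map1lc3b. This order describes the counts in the sum and does not compare transcript amounts between genes.

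**Figure D2:**
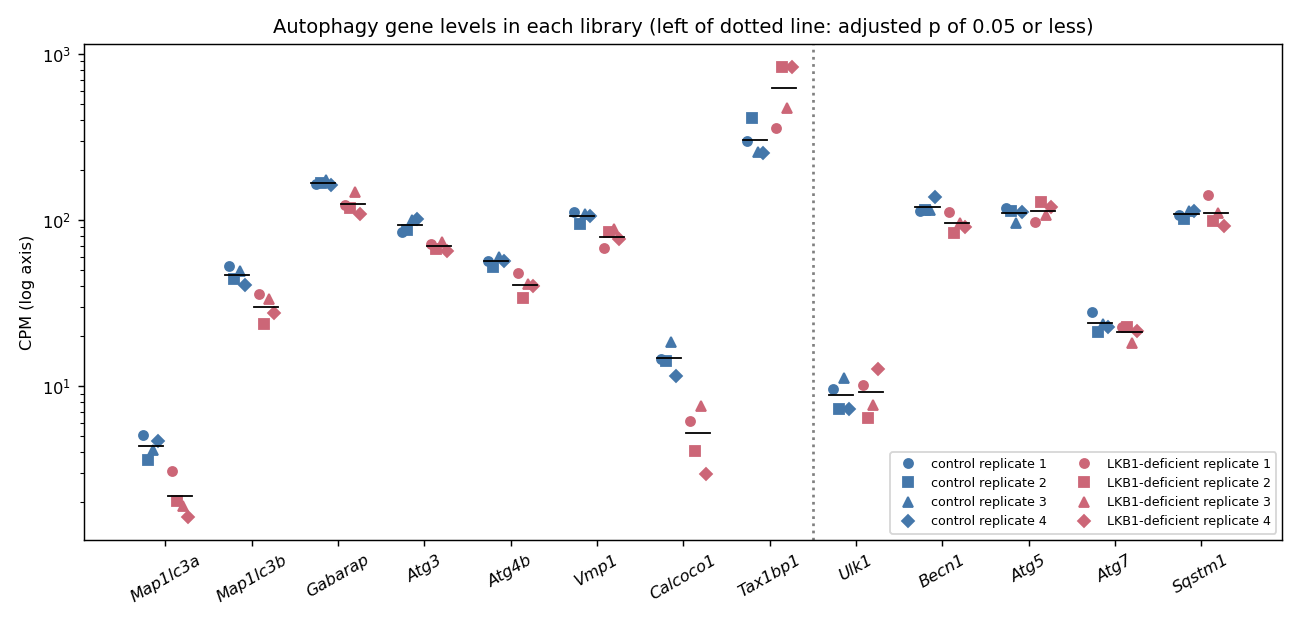
CPM on a log axis for the 8 autophagy genes that passed the test (left of the dotted line) and 5 textbook autophagy genes that did not (right); symbols mark replicates 1 to 4 of control (blue) and LKB1-deficient (red) libraries, and black lines are group means. The groups are apart for the 7 lower genes, while for Tax1bp1 control replicate 2 (408 CPM) lies above LKB1-deficient replicate 1 (356 CPM).

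In the conjugation machinery, 2 of 8 tested genes fell, 6 did not pass, and Atg4a and Atg4c were below the filter. The share called, 25%, is near the 22.5% of all tested genes. Atg3 encodes the E2-like enzyme that hands LC3 to its lipid, and lies on chromosome 16 (45158785 to 45188538, plus strand). It was at 84.0, 87.2, 99.2 and 102 CPM in control and at 72.0, 67.0, 73.5 and 65.2 CPM in LKB1-deficient replicates 1 to 4. Its groups did not overlap, and the fall was 1.34-fold (log2 fold change -0.42 ± 0.12, adjusted p = 0.0309). Atg4b encodes the main protease that trims LC3 precursors and later frees LC3 from membranes, and lies on chromosome 1 (93751500 to 93790610, plus strand). It was at 56.2, 52.2, 59.9 and 56.5 CPM in control and at 47.5, 33.8, 41.1 and 39.9 CPM in LKB1-deficient replicates 1 to 4 (log2 fold change -0.47 ± 0.13, adjusted p = 0.0298). Here too every LKB1-deficient library lay below every control library. Over 3365 bases Atg4b overlaps Thap4 on the opposite strand, and the sources used here do not say whether the counting used strand. Thap4 was 29.6 to 31.0 CPM in control and 17.2 to 28.4 CPM in LKB1-deficient libraries, and its part in the Atg4b value was not tested.

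Atg7, the E1-like enzyme that activates both LC3 and ATG12, was at 27.9, 21.0, 23.8 and 22.7 CPM in control and at 22.8, 22.7, 18.3 and 21.3 CPM in LKB1-deficient replicates 1 to 4. Atg5, the acceptor of ATG12, was at 118, 113, 95.8 and 111 CPM in control and at 97.1, 128, 107 and 119 CPM in LKB1-deficient replicates 1 to 4. The groups overlapped for both genes, with log2 fold changes of -0.17 (interval -0.48 to 0.14, adjusted p = 0.378) and 0.04 (interval -0.25 to 0.33, adjusted p = 0.834). The sign for Atg5 turned with upper quartile and total count scaling. Atg12, Atg16l1, the membrane-targeting partner of the ATG12-ATG5 conjugate, and Atg10, the E2-like enzyme for ATG12, had log2 fold changes of -0.23, -0.12 and -0.44, none of which passed. The end of the Atg16l1 transcript is about 95% identical to parts of 3 other genes over 101 to 108 bases, so its counts are uncertain. Atg4d, another LC3 protease, was 11.8 to 15.5 CPM in control and 12.4 to 18.1 CPM in LKB1-deficient libraries (log2 fold change 0.21). Kri1, which overlaps Atg4d on the opposite strand, rose from 42.7 to 78.9 CPM on average (adjusted p = 0.0225), and its part in the Atg4d value was not tested. Atg4a had 1 count in all control and 2 in all LKB1-deficient libraries, and an annotated pseudogene is 98.2% identical to the end of its transcript over 223 bases. Atg4c had 15 and 7 counts.

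Cargo receptors held the extreme values in both directions, with 1 of 5 higher, 1 lower and 3 not passed. Among all tested genes 12.4% were called higher and 10.1% lower, and 5 genes are too few to read a share from. Calcoco1 encodes a coiled-coil protein of the family of the xenophagy receptor NDP52 and binds the LC3 and GABARAP family in the turnover of endoplasmic reticulum. It lies on chromosome 15 (102706777 to 102722178, minus strand). It was at 14.6, 14.2, 18.4 and 11.4 CPM in control and at 6.19, 4.08, 7.55 and 2.97 CPM in LKB1-deficient replicates 1 to 4, from 88 to 243 and 11 to 48 counts. Its highest LKB1-deficient library was below its lowest control library. The fall was 2.74-fold (log2 fold change -1.46 ± 0.27, adjusted p = 0.00836), rank 339 by p among all 10396 genes. Leaving out any single library gave values from -1.75 to -1.27 with adjusted p of at most 0.0269. Without both LKB1-deficient replicates 2 and 4 the value was -1.07 and the adjusted p 0.0593.

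Tax1bp1 encodes a receptor for ubiquitinated cargo that also serves as an adaptor of the deubiquitinase A20, and lies on chromosome 6 (52713729 to 52766780, plus strand). It was at 299, 408, 257 and 252 CPM in control and at 356, 838, 473 and 828 CPM in LKB1-deficient replicates 1 to 4. LKB1-deficient replicates 2 and 4 stood well above the others, and LKB1-deficient replicate 1 lay within the control range. The rise was 2.05-fold (log2 fold change 1.04 ± 0.29, adjusted p = 0.0306). Without both LKB1-deficient replicates 2 and 4 the log2 fold change was 0.45 and the adjusted p 0.292. In those 2 libraries Tax1bp1 made up 39.8% and 41.0% of the counts of all 38 genes, against 15.5% to 22.6% in the controls and 22.2% and 26.7% in LKB1-deficient replicates 1 and 3. All 38 genes together summed to 1629 to 1804 CPM in control and to 1606, 2104, 1770 and 2021 CPM in LKB1-deficient replicates 1 to 4, so the groups overlapped and replicates 2 and 4 were highest. The 37 genes other than Tax1bp1 summed to 1377 to 1422 and 1193 to 1298 CPM; Tax1bp1 was set aside after its rise was seen, so this lower sum follows in part from that choice.

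The other receptors did not pass. Sqstm1, encoding p62, the receptor that is itself degraded with its ubiquitinated cargo, was at 107, 101, 113 and 112 CPM in control and at 141, 97.9, 111 and 91.4 CPM in LKB1-deficient replicates 1 to 4. The LKB1-deficient libraries lay on both sides of the controls (log2 fold change 0.02, interval -0.31 to 0.35, adjusted p = 0.920), and the sign turned with upper quartile and total count scaling. Nbr1, a p62-related receptor, was 32.3 to 38.2 CPM in control and 28.0 to 37.5 CPM in LKB1-deficient libraries (log2 fold change -0.06). Optn, encoding optineurin, a receptor for damaged mitochondria and bacteria, was at 2.34, 3.82, 1.82 and 2.08 CPM in control and at 2.81, 10.5, 2.68 and 5.39 CPM in LKB1-deficient replicates 1 to 4. As for Tax1bp1, LKB1-deficient replicates 2 and 4 were highest, and the difference did not pass (log2 fold change 1.03 ± 0.45, adjusted p = 0.116). Among the 5 mast cell and basophil markers 2 were tested, and Gata2 was called higher (log2 fold change 2.05, edgeR adjusted p = 0.0422). It was at 0.809 to 1.69 CPM in control. In LKB1-deficient replicates 1 to 4 it was at 0.563, 9.62, 2.36 and 8.36 CPM, so it too was highest in replicates 2 and 4. Cpa3 was at 0.281, 4.08, 1.42 and 3.77 CPM in the same libraries and at most 1.04 CPM in control. Mcpt8 (0.898 to 1.87 CPM in control, 2.25 to 5.83 CPM in LKB1-deficient libraries, adjusted p = 0.0511) and Ms4a2 (0.260 to 0.530 and 0.944 to 2.43 CPM) had every LKB1-deficient library above every control, and Fcer1a had at most 3 counts in any library. The part of such cells in the receptor values was not tested.

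None of the 12 genes of the ULK and PI3K complexes passed the test, while 22.5% of all tested genes did. With so few genes this count is a description. Ulk1, the initiating kinase and the AMPK substrate of the complex, was at 9.52, 7.23, 11.2 and 7.27 CPM in control and at 10.1, 6.41, 7.71 and 12.7 CPM in LKB1-deficient replicates 1 to 4. The groups overlapped throughout (log2 fold change 0.05, interval -0.48 to 0.59, adjusted p = 0.889), and the sign turned with upper quartile and total count scaling. The kinases Ulk2 and Ulk3 had log2 fold changes of -0.04 and -0.09. Rb1cc1, encoding the scaffold FIP200, was at 65.9, 81.2, 35.9 and 25.3 CPM in control and at 45.3, 150, 68.0 and 89.2 CPM in LKB1-deficient replicates 1 to 4. Its controls differed more than 3-fold among themselves and the difference did not pass (log2 fold change 0.75 ± 0.41, adjusted p = 0.197). Atg13 and Atg101, which hold the complex together, were 24.0 to 25.8 and 32.7 to 36.6 CPM in control and 18.1 to 22.7 and 20.8 to 31.2 CPM in LKB1-deficient libraries. Both had groups that did not overlap but adjusted p-values of 0.133 and 0.0588.

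Becn1, encoding Beclin 1, the regulatory subunit of the PI3K complex, was at 112, 115, 115 and 138 CPM in control and at 112, 83.9, 96.2 and 90.8 CPM in LKB1-deficient replicates 1 to 4. LKB1-deficient replicate 1 came within 1 CPM of the lowest control, and the log2 fold change was -0.33 ± 0.13 (adjusted p = 0.0959). The lipid kinase Pik3c3, its partner Pik3r4 and the membrane-targeting subunit Atg14 had log2 fold changes of 0.05, 0.07 and 0.13, and the signs of all 3 turned with total count scaling. Uvrag, which replaces Atg14 in the endosomal form of the complex, and Ambra1, a Beclin 1 binding protein, had values of -0.20 and 0.28. The point estimates of the 6 genes ran from 1.25-fold lower (Becn1) to 1.21-fold higher (Ambra1).

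Among 6 genes of membrane supply, 1 fell, 4 did not pass and Atg2a was not tested. The share called of those tested, 20%, is near the 22.5% of all tested genes. Vmp1 encodes a lipid scramblase of the endoplasmic reticulum that is needed for autophagosome formation, and lies on chromosome 11 (86583865 to 86683836, minus strand), where it overlaps the microRNA gene Mir21a. It was at 111, 94.7, 109 and 105 CPM in control and at 67.5, 84.5, 87.8 and 76.8 CPM in LKB1-deficient replicates 1 to 4. The groups did not overlap (log2 fold change -0.41 ± 0.13, adjusted p = 0.0423). With the identifier prefix as a term the adjusted p was 0.0581, and among EU libraries alone the value was -0.31 with an adjusted p of 0.144. The other 6 calls held in both of these fits. Wipi1 and Wipi2, which read the lipid made by the PI3K complex, had log2 fold changes of -0.38 and -0.09. Atg9a, the scramblase of the vesicles that seed the membrane, and Atg2b, a lipid transfer protein, had values of 0.20 and 0.22. The Atg2b groups did not overlap, at 27.8 to 30.3 CPM in control and 32.1 to 37.6 CPM in LKB1-deficient libraries. Its difference did not pass (edgeR adjusted p = 0.177). Over 383 bases Atg2b overlaps Gskip on the opposite strand, which fell from 36.2 to 27.0 CPM on average (edgeR adjusted p = 0.0288). The part of Gskip in the Atg2b value was not tested. The end of the Atg9a transcript is identical to that of an overlapping annotated gene that is not in the count tables. Atg2a, the other lipid transfer protein, had 0 counts in all 8 libraries. Its upper limit is 0.0676 CPM for the control and 0.176 CPM for the LKB1-deficient group (3 counts over each group, counting error only). The limit presumes that reads of Atg2a could be assigned to its symbol, which was not tested.

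**Figure D3:**
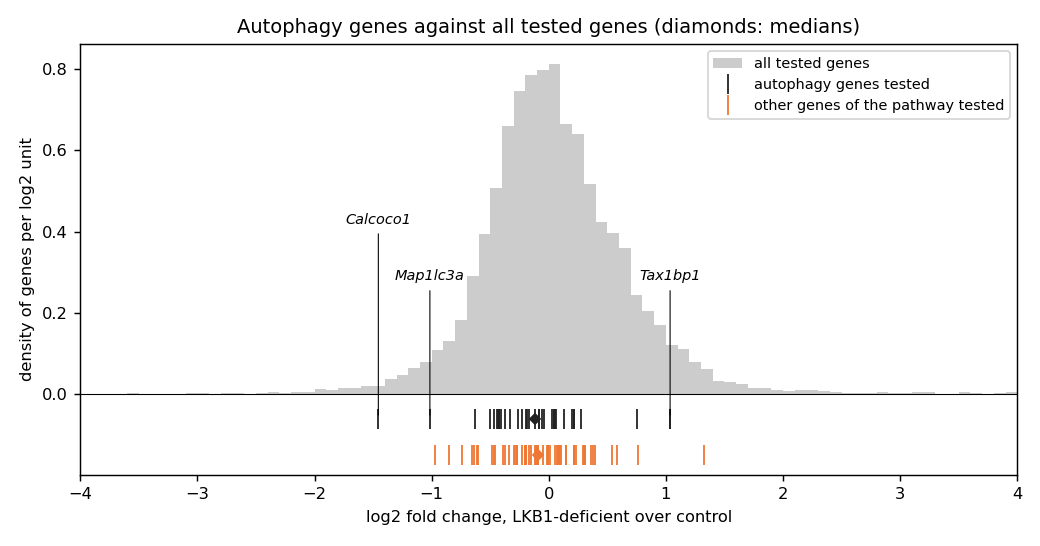
Density of the log2 fold change, LKB1-deficient over control, of all 10396 tested genes (grey; values beyond the axis are drawn in the end bins), with ticks for the 35 tested autophagy genes (black) and 62 other tested genes of the pathway (orange) and diamonds at their medians of -0.12 and -0.09. Calcoco1, Map1lc3a and Tax1bp1 are the called autophagy genes that lie at least 2-fold from no change, as 9.56% of all tested genes do.

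The 35 genes also differed by transcript length. The 16 with a longest annotated transcript of at least 4000 bases had a median log2 fold change of 0.00, and the 19 shorter ones -0.26. Over the 35 genes the Spearman correlation of length and log2 fold change was 0.56, given as a description since the genes share their libraries. Neither the split nor the correlation was computed over all tested genes, so whether they are particular to the autophagy genes was not tested. With each library's trend on transcript length removed, the calls of Atg4b (-0.54), Map1lc3b (-0.70), Calcoco1 (-1.41) and Tax1bp1 (0.95) held. Those of Gabarap (-0.18, adjusted p = 0.285), Atg3 (-0.27), Vmp1 (-0.33) and Map1lc3a (-0.73) ended. In 6 of the 8 called autophagy genes, Map1lc3a and Vmp1 being the exceptions, LKB1-deficient replicates 2 and 4 were the libraries farthest from the controls, as in 60.4% of all called genes.

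**Figure D4:**
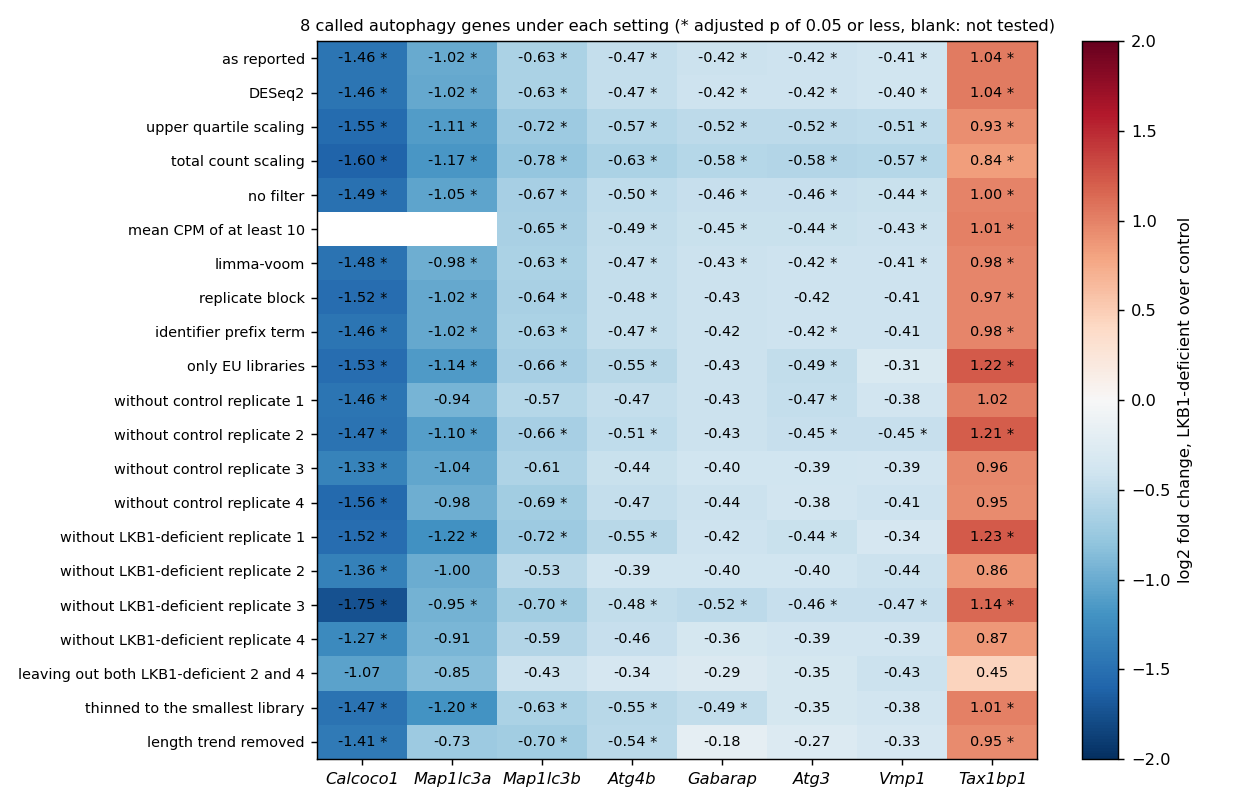
Log2 fold change, LKB1-deficient over control, of the 8 called autophagy genes (columns) as reported and under each alternative setting (rows); a star marks an adjusted p of 0.05 or less, and blank cells were not tested. Calcoco1 keeps its star in every row in which it was tested except the one without both LKB1-deficient replicates 2 and 4 (-1.07), and all 8 genes keep their sign.

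Of 70 other genes of the pathway, 62 were tested: 4 were called lower, none higher, and the other 58 missed the threshold. This is 6.45% of them, below the 22.5% of all tested genes. Their median log2 fold change was -0.09. Wdr45, encoding WIPI4, which pairs with ATG2 at the growing membrane, was at 26.7, 19.6, 23.0 and 21.8 CPM in control and at 14.1, 11.1, 12.0 and 9.17 CPM in LKB1-deficient replicates 1 to 4 (1.97-fold lower, adjusted p = 0.00594). Atg16l2, a paralogue of Atg16l1, went from 38.9 ± 5.82 to 25.5 ± 4.22 CPM (SD, n = 4 each; edgeR adjusted p = 0.0273). Wdr45 and Atg16l2 were the 2 called among 14 other initiation and membrane genes, and for both the groups did not overlap. Pink1, the kinase that flags damaged mitochondria for autophagy, was the 1 called of 15 tested organelle receptor genes and went from 16.8 ± 3.53 to 9.23 ± 3.08 CPM (SD, n = 4 each; edgeR adjusted p = 0.0379). Rheb, the GTPase that activates mTORC1, was the 1 called of 12 tested genes of the AMPK and mTORC1 input, at 104 ± 12.8 and 75.8 ± 9.80 CPM (SD, n = 4 each; edgeR adjusted p = 0.0411). None of 14 fusion and lysosome delivery genes and none of 7 transcription factor genes passed in the edgeR test, and 2 in each list had an unadjusted p under 0.05. Among the latter, Tfeb, a master regulator of lysosome and autophagy genes, was 9.35 to 11.5 CPM in control and 4.31 to 9.57 CPM in LKB1-deficient libraries (log2 fold change -0.64, edgeR adjusted p = 0.0696). The other transcription factor gene, Nfe2l2, encoding NRF2, a regulator of antioxidant genes, had the opposite sign, at 44.9 to 55.7 CPM in control and 50.6, 122, 55.7 and 99.5 CPM in LKB1-deficient replicates 1 to 4 (log2 fold change 0.76, edgeR adjusted p = 0.0588). Both were named after their values were seen. The count of called genes among the 62 was 1 when control replicate 1, 3 or 4 was left out, was 1 when LKB1-deficient replicate 2 or 4 was, was 10 without LKB1-deficient replicate 1, and was 0 without both LKB1-deficient replicates 2 and 4.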

How the data were processed

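Gene expression was measured by strand-specific 3' RNA-seq in 8 mouse libraries, 4 per group. For each library the authors deposited unnormalised whole-number counts by gene symbol. STAR and mm10 are named per the submitters' processing notes; for the counting program, versions, annotation and use of strand the entry is: not given in the sources used here. No molecular identifiers are stated. The 5 closing lines that name no gene entered neither library sizes nor tests; reads outside annotated genes made up 12.1% to 14.3% (control) and 14.9% to 17.5% (LKB1-deficient) of all reads in genes, shared between genes or outside genes, and multiply aligned reads numbered 2.92 to 3.50 for each gene count in control and 2.21 to 2.65 in LKB1-deficient libraries.

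Genes passing filterByExpr (minimum count 10, minimum total 15) were scaled by TMM and tested with the robust quasi-likelihood test of edgeR 4.0.16 in R 4.3.3, without covariates, with Benjamini-Hochberg adjustment over all 10396 tested genes and a threshold of 0.05. Standard errors were derived from each F statistic and the log2 fold change, and intervals are at 95%. The test was checked on simulated counts. No library of a group repeated another (pairwise chi-square 10.9 to 46.2 times its degrees of freedom). Coordinates and lengths come from GENCODE vM21 (GRCm38, the assembly of mm10); 96.5% of tested genes had a length. Alternatives were DESeq2 1.42.0, limma-voom (limma 3.58.1), other scalings and filters, a replicate block, the prefix of the sample identifiers (ET for replicate 1, EU for replicates 2 to 4), left-out libraries, thinning to 3454388 counts and removal of the length trend (lowess span 0.3). The genes and lists were chosen with earlier results of these data known. Named genes are all 38 members, of which those called and 6 textbook genes (Map1lc3b among the called) are given in every library, and the called genes of each other list with the 3 smallest p per direction. Library values of Rb1cc1 and Optn, and the genes Tfeb and Nfe2l2, were added after their values were seen.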

Additional observations from a re-analysis of the deposited data

Results flagged for a closer look

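In 4 of 70 checks, each of 1 autophagy gene in the 4 libraries of 1 group, 1 library stood apart from the other 3 by Dixon's ratio at its 95% limit; chance flags about 1 in 20, or 3.5 of 70. Ulk3 was at 4.58 CPM in control replicate 1 and 2.84 to 3.03 CPM in the other controls. Becn1 was at 138 CPM in control replicate 4 and 112 to 115 CPM in the other controls. Atg14 was at 13.7 CPM in LKB1-deficient replicate 2 and 8.03 to 8.36 CPM in the other LKB1-deficient libraries. Nbr1 was at 38.2 CPM in control replicate 3 and 32.3 to 33.1 CPM in the other controls. None of these 4 genes passed the test between groups.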

How the results depend on the processing

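The 8 called autophagy genes kept their direction in all alternatives that tested them. Leaving out 1 library at a time gave 1 to 8 called autophagy genes (0 to 1 higher, 1 to 7 lower), 1011 to 2825 called genes in all and 1 to 10 called genes of the other lists. Without both LKB1-deficient replicates 2 and 4 the counts were 0 called autophagy genes (0 higher, 0 lower), 260 genes in all and 0 of the other lists; fewer samples were tested. Correlations of deviations between libraries of the same replicate number were -0.251, 0.291, 0.30 and -0.0861 for replicates 1 to 4. Values of both signs do not decide whether replicate numbers pair the libraries. In the edgeR fit with a replicate block, Gabarap, Atg3 and Vmp1 had adjusted p of 0.0642, 0.0653 and 0.0804. That block gave 5 autophagy genes (1 higher, 4 lower), 1902 genes in all and 2 of the other lists. With the length trend removed there were 4 (3 lower) and a median of -0.20. At an adjusted p of 0.01 there were 1 (0 higher, 1 lower), 437 in all and 1 of the other lists. The other lists gave 8 with DESeq2 and 7 with total count scaling.

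Upper quartile and total count scaling moved the median of all genes from 0.00 to -0.10 and -0.16, the median of the autophagy genes to -0.21 and -0.28, and the split of all calls from 1286 higher and 1051 lower to 1023 and 1446, and to 829 and 1576. Signs that turned belong to genes that never passed in these settings. With upper quartile scaling the log2 fold changes were -0.048 (Ulk1), -0.050 (Pik3c3), -0.033 (Pik3r4), -0.060 (Atg5) and -0.072 (Sqstm1). With total count scaling they were -0.11 (Ulk1), -0.11 (Pik3c3), -0.092 (Pik3r4), -0.041 (Atg14), -0.13 (Atg5) and -0.13 (Sqstm1). Sqstm1 was at -0.011 without a filter and -0.12 in EU libraries alone. Without both LKB1-deficient replicates 2 and 4 the values were -0.0024 (Ulk1), 0.13 (Ulk2), 0.15 (Ulk3), -0.097 (Atg14), -0.095 (Atg5) and 0.091 (Nbr1). Thinning gave -0.089 (Ulk1) and 0.013 (Wipi2), and removing the length trend -0.14 (Ulk1), -0.094 (Pik3r4), -0.20 (Atg2b) and -0.062 (Atg4d). Leaving out 1 library gave ranges of -0.13 to 0.19 (Ulk1), -0.17 to 0.051 (Ulk2), -0.28 to 0.099 (Ulk3), -0.087 to 0.13 (Pik3c3), -0.085 to 0.20 (Atg14), -0.077 to 0.34 (Atg9a), -0.019 to 0.11 (Atg5), -0.11 to 0.11 (Sqstm1) and -0.14 to 0.010 (Nbr1). The cause of these changes was not tested. Atg101 passed in 4 alternatives (adjusted p down to 0.0292). A single count is 0.281, 0.291, 0.157 and 0.270 CPM in LKB1-deficient replicates 1 to 4, which limits Map1lc3a, Optn and Ulk3.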
